A study of Mus musculus with 2 samples.

Results

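The miR-199 and miR-214 genes are 4 microRNA (miRNA) genes that lie within dynamin genes, on the strand opposite to them. They are Mir199a-1, Mir199a-2, Mir199b and Mir214, chosen by their GENCODE M21 gene names, and all 4 were found among the 2202 miRNA genes of the count tables. They were read in small RNA libraries from the adrenal gland of adult female mice of the 5xFAD/CAST strain, aged 8 to 10 months. 5xFAD mice carry mutant human transgenes and serve as an Alzheimer's disease model. CAST is an inbred castaneus strain of wild origin. Which animals carried the transgenes is not stated in the labels. The 2 libraries are biological replicates 1 and 2 of 1 group, with separate biosamples and a shared donor identifier, so spread between them may be technical and no condition is compared.

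A miRNA is cut from a hairpin in a longer transcript, and its mature arm of about 22 bases pairs through its seed, bases 2 to 8, with messenger RNAs that it represses. Mir199a-2 and Mir214 are made together from the noncoding transcript Dnm3os, which runs against the dynamin gene Dnm3, and both miRNAs are known from mesenchyme, fibroblasts and developing skeleton. Known targets include the membrane protein caveolin-1 for miR-199a-5p and the growth kinase mTOR for miR-199a-3p. Dynamins are GTPases that pinch vesicles from membranes. The adrenal gland is wrapped in a fibroblast capsule, but RNA of the whole gland was sequenced, so the cells that made these miRNAs were not identified. In such RNA, fewer cells of a type and less RNA per cell cannot be told apart.

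The mature arms are shown first, since a read that lies within an arm held by several miR-199 genes cannot be assigned to 1 of them. The sequences are RefSeq entries of build GRCm38.p6, all 4 members matched, and capitals mark the seed.
miR-199a-5p (Mir199a-1 and Mir199a-2): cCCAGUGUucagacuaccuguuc
miR-199a-3p and miR-199b-3p (Mir199a-1, Mir199a-2 and Mir199b): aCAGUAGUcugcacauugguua
miR-214-5p (Mir214): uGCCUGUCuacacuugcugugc
miR-214-3p (Mir214): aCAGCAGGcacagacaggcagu
The 3p arm was letter for letter the same in all 3 miR-199 genes, and the 5p arm was the same in Mir199a-1 and Mir199a-2. Neither arm of Mir214 occurred in a miRNA gene at another locus, on either strand. Among all 141767 annotated M21 transcripts, the arms of miR-214 were found in Mir214 and Dnm3os alone, and miR-199a-3p in Dnm3os and the 3 miR-199 genes. The seeds of miR-199a-3p and miR-214-3p match at 5 of 7 bases. They differ by U5C and U8G, written with the miR-199a-3p base first and counted from the 5′ end of the arm.

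The hairpins show where the copies part. Capitals mark the mature arms listed for each gene.
Mir199a-1: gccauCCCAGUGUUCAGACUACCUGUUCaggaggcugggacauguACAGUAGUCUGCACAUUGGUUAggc
Mir199a-2: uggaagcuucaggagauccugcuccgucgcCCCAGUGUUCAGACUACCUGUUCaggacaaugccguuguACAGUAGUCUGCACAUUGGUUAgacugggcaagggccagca
Mir199b: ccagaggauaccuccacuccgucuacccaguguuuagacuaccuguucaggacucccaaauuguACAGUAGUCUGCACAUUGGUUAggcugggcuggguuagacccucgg
Mir214: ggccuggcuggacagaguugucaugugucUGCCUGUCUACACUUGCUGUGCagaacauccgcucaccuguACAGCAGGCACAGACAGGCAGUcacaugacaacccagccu
Around the 5p arm, Mir199a-1 and Mir199a-2 were identical over a run of 27 bases, made of the arm, 0 bases before it and 4 after it. Around the 3p arm they were identical over 26 bases, and the run was 28 bases between Mir199a-1 and Mir199b and 27 between Mir199a-2 and Mir199b. The labels give a size range below 30 for the sequenced molecules, with no unit stated. In Mir199b, the stretch that aligns to miR-199a-5p carries the substitution C10U, counted from the 5′ end of miR-199a-5p, so the 5p side of Mir199b is not identical to the other copies. Of all 20-base windows in a hairpin, another miRNA gene held 17 of 51 in Mir199a-1, 16 of 91 in Mir199a-2, 10 of 91 in Mir199b and 0 of 91 in Mir214. The longest stretch of Mir214 found in another miRNA gene, on either strand, had 13 bases and lay in Mir302d.

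**Figure D1:**
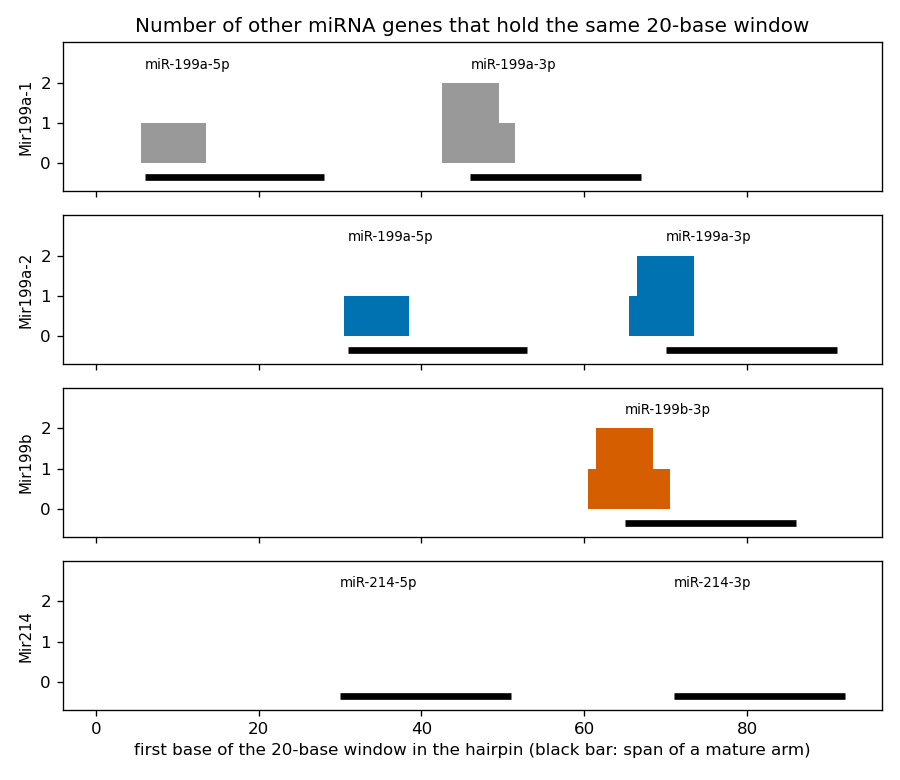
Number of other miRNA genes (y axis) that hold the same 20-base window, by the first base of the window in each hairpin (x axis, bases), with black bars for the mature arms. The shared windows of the miR-199 genes start at or just before the mature arms, reaching 2 other genes at the 3p arm, and Mir214 has none.

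In the mouse build mm10, Mir199a-2 (ENSMUSG00000070126.1) lies on chromosome 1 at 162217814 to 162217923 and Mir214 (ENSMUSG00000065516.1) at 162223368 to 162223477, both on the plus strand. They are separated by 5444 bases inside Dnm3os, which spans 7928 bases. Each lies in an exon of 2 of the 6 annotated Dnm3os transcripts and in an intron of Dnm3, which runs on the minus strand. Mir199b (ENSMUSG00000092807.1) occupies bases 32318460 to 32318569 of chromosome 2, within an intron of Dnm1 and against its direction. Mir199a-1 (ENSMUSG00000065547.1) occupies bases 21496495 to 21496564 of chromosome 9, within an intron of Dnm2 and again against its direction. Its annotated hairpin has 70 bases, against 110 for the other members. One more counted miRNA gene lies in these dynamin genes, Gm23363 in Dnm1, 116 bases before Mir199b on the same strand, with 2 reads in replicate 1 and 1 read in replicate 2.

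**Figure D2:**
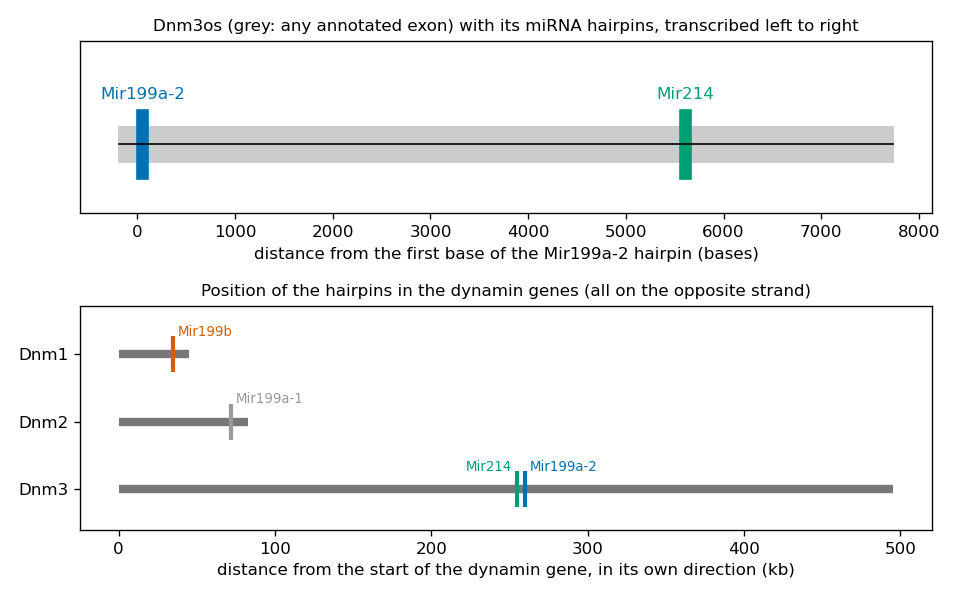
Top, the noncoding gene Dnm3os with the hairpins of Mir199a-2 and Mir214, by distance from the first base of Mir199a-2 (bases). Bottom, the hairpins (ticks) along Dnm1, Dnm2 and Dnm3, by distance from the start of each gene (kb), where Mir199a-2 and Mir214 sit close together near the middle of Dnm3.

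Mir214 was the member with nearly all assigned reads. Levels are in CPM, the reads on the annotated strand of a gene per 1000000 such reads on all miRNA genes, of which replicate 1 had 3635851 and replicate 2 had 6924829. The arms have 22 or 23 bases, so no scaling by length was made. Mir214 had 3202 reads in replicate 1, or 881 CPM (95% interval 850 to 912, exact Clopper-Pearson), and 4027 reads in replicate 2, or 582 CPM (564 to 600). Its level was 731 ± 212 CPM (SD, n = 2), rank 90 of all genes. A gene counted as detected if each library held 10 or more of its reads, and of the 356 such genes 89 were more abundant, and the median of the detected genes was 94.6 CPM. Reads of the hairpin arms are not separated, so the level covers miR-214-5p and miR-214-3p together.

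The miR-199 genes held few assigned reads. Mir199b had 52 reads in replicate 1, or 14.3 CPM (exact interval 10.7 to 18.8), and 29 in replicate 2, or 4.19 CPM (2.80 to 6.01), with a level of 9.24 ± 7.15 CPM (SD, n = 2). Mir199a-2 had 12 reads in replicate 1, or 3.30 CPM (1.71 to 5.77), and 19 in replicate 2, or 2.74 CPM (1.65 to 4.28), with a level of 3.02 ± 0.394 CPM (SD, n = 2). Mir199a-1 had 0 reads in both libraries, which with a limit of 3 reads allows up to 0.825 and 0.433 CPM of uniquely assigned reads. The exact interval used for the other genes reaches 1.01 and 0.533 CPM for this 0. The minimum of 10 reads in each library was thus passed by 3 of the 4 genes, and Mir199a-1 did not pass it. The order of the levels was Mir214, Mir199b, Mir199a-2 and Mir199a-1. In replicate 1 the intervals of Mir199b and Mir199a-2 were separate, and in replicate 2 they overlapped, so the order of these neighbors was not resolved there. Intervals and limits cover counting error only.

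These miR-199 counts are not levels of the mature miRNAs. Reads with several genomic matches were put in 1 entry per library that names no gene, which held 2454066 reads, 31.6% of the library, in replicate 1 and 5165270, 33.6% of the library, in replicate 2. A read that lies wholly within an arm shared by several miR-199 genes has several matches. The entry is not divided by sequence, so how many of its reads carry a miR-199 arm was not measured. It is 38345 times the summed count of the miR-199 genes in replicate 1, which was 64 reads, and 107610 times that in replicate 2, which was 48 reads. The 0 of Mir199a-1 therefore sets no limit on its expression.

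**Figure D3:**
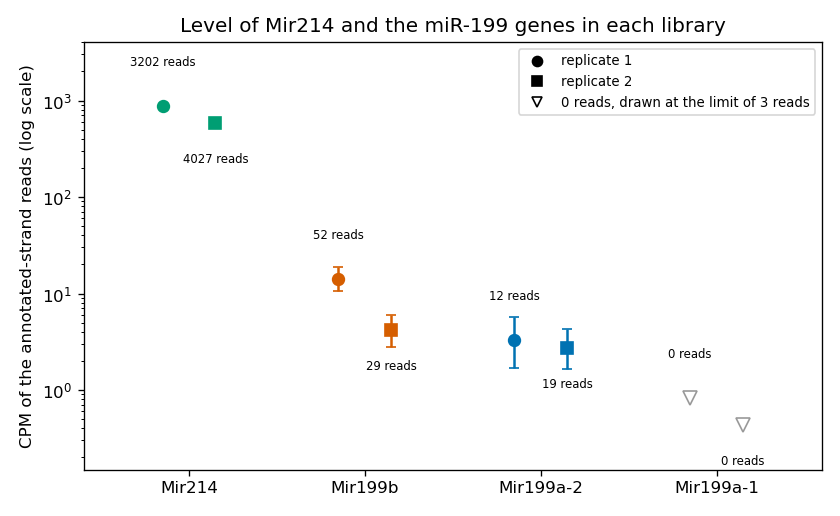
CPM on a log axis for the 4 genes in each library (circles replicate 1, squares replicate 2), with exact 95% counting intervals, read counts as labels and open triangles for 0 reads drawn at the limit of 3 reads. Mir214 stands at 881 and 582 CPM, and no miR-199 gene exceeds 14.3 CPM.

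Mir214 and Mir199a-2 come from the same host transcript, and their assigned reads were far from equal in both libraries. Mir214 had 267 reads for each Mir199a-2 read in replicate 1 (exact binomial 95% interval 153 to 517) and 212 in replicate 2 (136 to 352). The log2 ratio was 8.06 and 7.73, or 7.89 ± 0.235 (SD, n = 2), and the intervals of the libraries overlapped. The reads of Mir214 also outnumbered those of the 3 miR-199 genes together, by 50.0 times in replicate 1 (39.1 to 65.1) and 83.9 times in replicate 2 (63.2 to 114). These ratios compare a gene whose arms occur at 1 annotated locus with genes whose listed arms occur at several. They do not give the ratio of the mature miRNAs. Mir199b has no listed 5p arm, and its 5p side differs from the other copies by C10U.

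Among the 3 miR-199 copies, Mir199b took most of the assigned reads. In replicate 1 its share was 52 of 64 reads, 81.3% (95% interval 69.5 to 89.9%, exact Clopper-Pearson) and 29 of 48, 60.4%, in replicate 2 (45.3 to 74.2%). Mir199a-2 took the rest, 18.8% (10.1 to 30.5%) and 39.6% (25.8 to 54.7%), and the intervals of the libraries overlapped for each gene. Mir199a-1 took 0%, and a count of 0 with the limit of 3 reads allows up to 4.69% and 6.25%. Its exact interval reaches 5.60% and 7.40%. The difference in shares between the libraries was not tested, and it rests on 64 and 48 reads. The copies are not equally open to assignment. Both arms of Mir199a-2 are shared, whereas the 5p side of Mir199b differs from the other copies by C10U. How far this entered the shares was not tested.

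The other miRNA genes whose arms occur at several loci give the setting for these counts. RefSeq lists mature arms for 958 of the 2202 genes, and in 46 of these, the miR-199 genes included, every listed arm occurred in a miRNA gene at another locus. Of those 46 genes 6 were detected (13.0%) and 37 had 0 reads (80.4%), against 263 detected of 853 genes with no shared arm (30.8%), where 295 had 0 reads (34.6%). Of 59 genes with some arms shared, 40 were detected (67.8%) and 10 had 0 reads (16.9%). These shares are a description and were not tested. The other detected genes of this kind were Mirlet7c-2 at 1029 ± 211 CPM (SD, n = 2), Mirlet7a-1 at 302 ± 111 CPM, Mir129-1 at 119 ± 116 CPM and Mir219a-2 at 8.22 ± 3.07 CPM. Mir199b at 9.24 CPM and Mir199a-2 at 3.02 CPM complete the 6, whose levels thus ranged from 3.02 to 1029 CPM. Whether shared arms lowered the counts of a gene was not tested. For Mir199b, only the 3p arm is listed, and Mir129-1 and Mir219a-2 also have 1 listed arm each. Arms that are not listed were not searched. A search of the rest of the genome was not made.

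The strand columns gave the same picture. None of the 4 genes overlaps another counted miRNA gene on either strand. For Mir199a-1, Mir199a-2 and Mir199b the count of both strands equaled that of the annotated strand in each library, and the opposite strand had 0 reads. For Mir214 the count of both strands was 3203 and 4028, the annotated strand had 3202 and 4027, and the opposite strand had 1 read in each library. Uniquely assigned reads antisense to a member, that is in the direction of the dynamin genes, thus numbered at most 1 per library. Antisense reads of the shared miR-199 arms would have several matches and were not assigned. The dynamin transcripts themselves were not measured.

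Seeds were shared with few other listed miRNAs. The seed CAGCAGG of miR-214-3p also belongs to miR-761, shown with its seed in capitals.
mmu-miR-761: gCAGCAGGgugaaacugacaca
Mir761 had 0 reads in both libraries, which with the limit of 3 reads allows up to 0.825 and 0.433 CPM. Its arm occurred at no other miRNA locus. Of the genes listed with this seed, Mir214 alone had assigned reads, which cover both of its arms and were not divided by seed. The seeds CCAGUGU and CAGUAGU of miR-199a-5p and of the shared 3p arm, and GCCUGUC of miR-214-5p, were found in no further listed miRNA. Mature arms are listed for 958 of the 2202 genes. The 5p side of Mir199b, for which no arm is listed, also reads CCAGUGU where it aligns to the seed of miR-199a-5p.

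Mir214 and Mir199b were lower in replicate 2 when only counting error was allowed for. Each gene was tested between the libraries by a two-sided Fisher's exact test (Benjamini-Hochberg adjustment over 455 genes with at least 10 reads in both libraries together). This compares the libraries, not conditions, and it called 52.5% of the genes, 35.6% as lower in replicate 2. Mir214 had a log2 ratio of -0.60 (adjusted p = 2.21e-66 by Fisher's exact test) and Mir199b of -1.76 (adjusted p = 1.83e-07 by Fisher's exact test). Mir199a-2 had a log2 ratio of -0.29 and did not pass (adjusted p = 0.793 by Fisher's exact test), and Mir199a-1 was not tested. Read against the 35.6% of all genes called lower, 2 of 3 tested members show nothing particular to the members.

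A test that allows for spread between libraries did not make these calls, but it took that spread from the same 2 libraries. The difference that is tested thus counts as spread, and few calls can pass. The test cannot decide whether the libraries differ. By the exact test of edgeR, with 1 dispersion common to all genes, 1.10% of the 455 genes were called, and Mir214 (adjusted p = 1.00), Mir199b (adjusted p = 0.470) and Mir199a-2 (adjusted p = 1.00) were not. The edgeR test ran on plain totals, while its dispersion was estimated after TMM normalization. With plain totals, the median log2 ratio of all tested genes was -0.18. TMM normalization shifted all ratios by 0.20, which gives -0.40 for Mir214, -1.56 for Mir199b and -0.09 for Mir199a-2. With TMM, an exact binomial test in place of Fisher's called 116 genes lower and 124 higher, against 162 and 77 with plain totals, and Mir214 and Mir199b were again among those called lower.

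**Figure D4:**
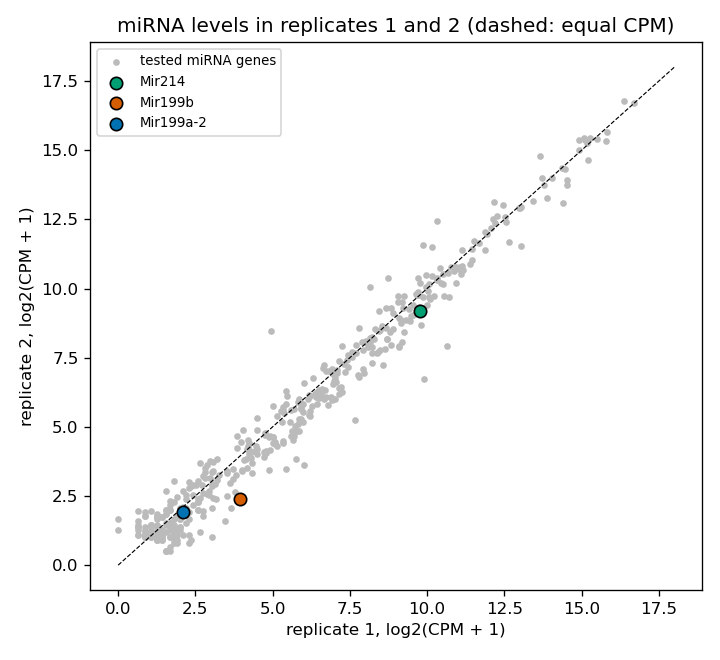
Level of each tested miRNA gene in replicate 1 (x axis) and replicate 2 (y axis), both as log2(CPM + 1), with equal levels on the dashed line. Mir214 lies within the cloud of other genes, Mir199b lies below the line with 52 and 29 reads, and Mir199a-2 lies near it.

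The miRNAs listed for stroma and vessel wall did not move together between the libraries. Of a list of 11, all were detected. With plain totals, Fisher's exact test called 5 lower and 3 higher in replicate 2. The median log2 ratio was -0.05, against -0.18 over all genes tested. TMM shifted all ratios by 0.20, and Mir10a at -0.19 and Mir143 at -0.14, both called lower, lay nearer to 0 than this shift. The calls of the list were not counted again with TMM. Mir143, known from smooth muscle, had 22723 CPM in replicate 1 and 20631 CPM in replicate 2, and Mir21a, which is raised in fibrosis, had 13006 and 28072 CPM. The list summed to 131985 and 132026 CPM, of which Mir10a had 58513 and 51172 CPM. The cells that made these miRNAs were not identified, so the sum is not a measure of stroma. With plain totals, all 4 blood cell markers were called lower in replicate 2. Of all tested genes, 35.6% were called lower and 279 of 455 had a ratio below 0. The marker calls were not repeated with TMM. The sum of the markers went from 1254 to 771 CPM, among them Mir451a of red cells at 380 and 150 CPM. Mir126a of endothelium was at 56684 and 41532 CPM. The part of blood or vessel cells in the lower Mir214 and Mir199b counts was not tested.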

How the data were processed

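Small RNA libraries of the adrenal gland were deposited as 1 table of raw counts per library, with 3 unnamed count columns. The deposited notes name mm10 as assembly and GENCODE M21 as annotation. No aligner, counter, trimming step or column meaning is given in the sources used here. From the values, column 2 was taken as reads of both strands, columns 3 and 4 as reads of 1 strand each, since they sum to column 2 plus the ambiguous reads, once per strand. Column 3 was taken as the annotated strand because it held 3635851 and 6924829 gene reads against 476361 and 806302 in column 4. Column 3 was used, and entries that name no gene (53.2% and 55.0% of its reads) were left out of totals. An offset of 0.5 counts entered log2 ratios.

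The members, lists and tests were chosen with earlier results of these data known. Genes named are the members, counted miRNA genes in the dynamin genes, the 3 detected genes nearest in level to each detected member, and up to 3 of the abundant genes of a list, of which some are described. Lists covered stromal and vessel wall, epithelial, endothelial, endocrine, neuronal, blood and fibrosis-linked miRNAs. The other detected genes with shared arms were named after their values were seen. Mir302d and Mir761 were named for their sequences.

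Sequences came from RefSeq (GRCm38.p6) and M21 transcripts. Arms were searched in all 2202 genes on both strands, leaving out genes that overlap the same locus. Counts for the comparison of replicate 2 with replicate 1 were simulated with counting error only. On them, Fisher's exact test recovered 94.0% of 200 genes changed by 2-fold among 464 genes and called 5.30% of the unchanged ones. For the real libraries the edgeR dispersion gave a spread of 31.2% beyond counting error. The 5.30% is thus not the error rate of the test on these data. Alternatives were the both-strand column, all reads as denominator, TMM, DESeq2 size factors, edgeR's exact test, other count minimums and leaving out a library. The tests ran in scipy 1.17.1 under Python 3.11.15 (pandas 2.3.3, numpy 2.4.6), scaling and dispersion in edgeR 4.0.16 and DESeq2 1.42.0 under R 4.3.3.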

Additional observations from a re-analysis of the deposited data

How the results depend on the processing

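With all reads of a library as denominator, the mean level was 337 CPM for Mir214, 4.29 CPM for Mir199b and 1.39 CPM for Mir199a-2, and with the both-strand column that of Mir199a-2 was 3.45 CPM, by the smaller total of that column. Leaving out replicate 1 or 2 gave 582 to 881 CPM for Mir214, 4.19 to 14.3 CPM for Mir199b, 2.74 to 3.30 CPM for Mir199a-2, and 0 CPM for Mir199a-1 either way. It gave log2 ratios of Mir214 to Mir199a-2 of 7.73 to 8.06, and shares among the miR-199 copies of 60.4% to 81.3% for Mir199b and 18.8% to 39.6% for Mir199a-2. With a minimum of 1 read, 599 genes were detected in place of 356. The exact test of edgeR ran on plain totals with 1 dispersion for all genes. It called 5 genes, or 26 at an unadjusted p under 0.05, where Fisher's exact test called 239. The edgeR test did not call Mir214, at a log2 ratio of -0.60, or Mir199b, at -1.77. Its dispersion came from the same 2 libraries that it compares, so few calls can pass. No sign of a member's ratio changed under the alternatives run. Of 49 recomputed values, 42 kept their side of the threshold, within the spread of the libraries or, for counts of genes, within 1.5 times. The 42 include values that could not move. Each of 2 libraries always lies within 1 SD of their mean, so leaving out a library had to stay within the spread. The 0 of Mir199a-1 could not change with the denominator. No paired analysis was possible because the design has 1 group. The read depth limits Mir199a-2 and Mir199b, with 12 to 52 reads, far more than Mir214.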

Other observations

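The genes nearest in level to Mir214, by Euclidean distance in log2(CPM + 1) over the 2 libraries, were Mir182 (distance 0.14), Mir181c (0.16) and Mir106b (0.28), at mean levels of 779, 755 and 637 CPM. Those nearest to Mir199b were Mir547 (0.31), Mir1955 (0.42) and Mir3086 (0.43), and those nearest to Mir199a-2 were Mir7019 (0.10), Mir181b-1 (0.14) and Gm49346 (0.17). With 2 libraries this measures closeness of level and gives no pattern.

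Of 12 miRNAs linked to fibrosis, 10 were detected, and Fisher's exact test called 4 lower and 3 higher in replicate 2, with a median log2 ratio of -0.05. Mir21a was at 20539 ± 10653 CPM (SD, n = 2), Mir29a, which targets collagen messages, at 12453 ± 3668 CPM and Mir30a at 5716 ± 463 CPM. Of 7 epithelial miRNAs 5 were detected, with 1 called lower and 1 higher, led by Mir203 at 845 ± 74.2 CPM. The endocrine list had 3 of 3 detected, with 1 called lower and 1 higher, led by Mir375 at 45225 ± 1738 CPM, and of 7 neuronal miRNAs Mir137 alone was detected, at 555 ± 120 CPM, and it was called lower. The list calls of Fisher's exact test are with plain totals and were not counted again with TMM. The edgeR exact test, with its dispersion taken from the same 2 libraries, called none of the genes on any list.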
